A study of Mus musculus with 6 samples.

Results

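The genes described here encode HCN pacemaker channels (Hcn2, Hcn3 and Hcn4) and Pex5l, the auxiliary protein that binds them, in cultured mouse GABAergic interneurons. They are the 4 rows of the deposited table, out of 55335, whose symbol is one of these names. The cells came from the brains of wild-type C57BL/6 embryos at embryonic day 14.5 and were exposed to adeno-associated virus (AAV) for 12 hours. In 3 samples the virus is labelled AAV-shbrpf1, a short hairpin against Brpf1, and in 3 it is labelled AAV-scramble, a hairpin of scrambled sequence. Both groups therefore carry virus, and no uninfected sample is described here. The study asks what Brpf1, a scaffold of histone acetyltransferase complexes, does in interneurons that derive from the medial ganglionic eminence. The sources used here give neither the hairpin's sequence, nor the promoter that drives it, nor the time of RNA harvest. The labels do not say whether the samples of a group were separate cultures or animals, so each p-value below rests on the spread between samples, which may be technical.

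HCN channels open when the membrane hyperpolarizes and carry a mixed inward current of sodium and potassium, known as Ih in neurons and If in the heart. The current sets the resting potential and input resistance and helps neurons to fire rhythmically. Cyclic AMP binds to the cytoplasmic end of the channels and eases opening, strongly in the channels made from Hcn2 and Hcn4. Pex5l, also called TRIP8b, controls how many channels reach the surface of a neuron and opposes the effect of cyclic AMP. Among cortical and hippocampal interneurons, somatostatin cells of the stratum oriens are well known for this current.

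The HCN genes are close paralogs, so their shared sequence is shown first, since it bears on how reads are told apart. In the longest transcript of each gene in GENCODE M21, the longest run of identical bases in any pair was 33 bases, in the coding parts of Hcn2 and Hcn3. The same window is given for the 3 genes, with capitals for the 5 bases at which Hcn4 differs.
Hcn2: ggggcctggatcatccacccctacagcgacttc
Hcn3: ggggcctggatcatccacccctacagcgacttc
Hcn4: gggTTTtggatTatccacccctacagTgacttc
Hcn2 and Hcn4 shared a run of 32 bases at most, as did Hcn3 and Hcn4. No pair shared a stretch of 50 bases. Counted as overlapping windows of 30 bases, 3 or 4 were shared per pair, as many as the longest run alone holds. In GRCm38 coordinates Hcn2 (ENSMUSG00000020331) occupies chromosome 10, plus strand, from 79716634 to 79736108. Hcn3 (ENSMUSG00000028051) occupies chromosome 3, minus strand, from 89146074 to 89160196, and Hcn4 (ENSMUSG00000032338) chromosome 9, plus strand, from 58823412 to 58863175. Pex5l (ENSMUSG00000027674) occupies chromosome 3, minus strand, from 32949408 to 33143247. No annotated gene overlaps Hcn2 or Hcn4. Hcn3 shares 711 exonic bases with Pklr, the pyruvate kinase gene of liver and red cells, on the opposite strand. Pklr did not exceed 0.367 FPKM in any library; whether the authors' counting used strand is not stated in the sources. Gm37459, an antisense gene, shares 340 exonic bases with Pex5l and was at or below 0.23 FPKM.

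RefSeq's table for GRCm38.p6 held promoter windows of Hcn2 and Hcn4, each from 250 bases before to 50 bases after the annotated start. They are printed to show the start regions of the members that the table holds. Capitals mark GC boxes, searched as GGGCGG on both strands. The Hcn2 window is chr10:79716384-79716683 (plus strand) and the Hcn4 window is chr9:58822699-58822998 (plus strand).
Hcn2: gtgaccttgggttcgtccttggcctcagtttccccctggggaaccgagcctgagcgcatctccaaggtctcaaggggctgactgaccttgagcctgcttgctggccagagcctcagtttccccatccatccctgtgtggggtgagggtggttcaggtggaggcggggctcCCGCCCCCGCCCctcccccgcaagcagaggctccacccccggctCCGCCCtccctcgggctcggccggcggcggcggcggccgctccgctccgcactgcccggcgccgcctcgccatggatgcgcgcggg
Hcn4: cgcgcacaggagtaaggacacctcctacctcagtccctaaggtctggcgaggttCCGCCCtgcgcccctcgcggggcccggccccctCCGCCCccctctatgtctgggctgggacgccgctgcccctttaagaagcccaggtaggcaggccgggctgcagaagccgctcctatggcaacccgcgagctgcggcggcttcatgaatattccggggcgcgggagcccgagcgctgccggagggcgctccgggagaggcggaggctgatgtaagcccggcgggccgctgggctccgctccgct
The Hcn2 window held 3 GC boxes and the Hcn4 window 2, while 35.7% of the 32851 promoter windows in the table held at least 1. Both windows were rich in CG dinucleotides, with 26 in Hcn2 and 31 in Hcn4 against a median of 7 over all windows. Neither window held the letters TATAAA (13.6% of windows), CCAAT (37.4%) or TGACGTCA, the cyclic AMP response element (1.79%), on either strand. The Hcn4 start in RefSeq, at 58822949, lies before the start that the expression table gives.

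Expression was measured as FPKM, which scales the fragments of a gene by transcript length and library depth. Levels of different genes can so be set side by side for length and depth, but FPKM does not correct for GC content, which is treated below. Depth estimated from steps between low values was 13.1 to 21.1 M fragments per library. The interneuron markers fixed for the check (Gad1, Gad2, Slc32a1, Lhx6, Sst, Dlx1 and Dlx2) averaged 1 FPKM or more in 7 of 7 cases, against 0 of 4 glutamatergic and 0 of 4 microglial markers. Markers of radial glia and astrocytes, of the oligodendrocyte lineage and of cycling cells were also present (7 of 7, 7 of 7 and 3 of 3). In such mixed cultures, fewer cells of a type and less RNA per cell cannot be told apart. Brpf1, the targeted gene, stood at 3.13, 4.58 and 3.78 FPKM in AAV-shbrpf1 libraries 1, 2 and 3, against 3.29, 5.45 and 4.84 FPKM in AAV-scramble libraries. The values of the groups overlap, and the log2(FPKM + 1) difference was -0.18 ± 0.26 (SE; limma adjusted p = 1). Within the pairs of libraries that share a replicate number Brpf1 was lower with AAV-shbrpf1 in 3 of 3, as were 11.3% of all genes tested. Its differences were -4.88%, -16.0% and -21.8%. The first is under its counting error of 8.86%, and the others are 2.20 and 2.98 times theirs. With the pairs as a block the 95% interval was -0.44 to 0.07, which includes 0. A fall to 50% of the mean with AAV-scramble, which would be -0.76, lies outside that interval. Without the block the 95% interval was -0.79 to 0.42, which includes 0 and holds such a fall.

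The HCN genes held a fixed order of levels. Hcn2 was above Hcn3, Hcn3 above Hcn4 and Hcn4 above Pex5l in each of the 6 libraries. Hcn2, the major HCN gene of thalamic and many other central neurons, measured 21.8, 75.7 and 24.9 FPKM in AAV-shbrpf1 libraries 1, 2 and 3, against 19.4, 70.04 and 27.3 FPKM in AAV-scramble libraries. Both libraries numbered 2 stood far above the other 4, and the groups overlap throughout. By its mean over the libraries, Hcn2 was above 92.7% of the 12785 tested genes with a known transcript sequence.

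Hcn3, whose channels respond little to cyclic AMP, stood at 12.0, 18.4 and 9.63 FPKM in AAV-shbrpf1 libraries and at 12.1, 19.6 and 10.99 FPKM in AAV-scramble libraries. The libraries numbered 2 were again the highest, and those numbered 3 the lowest. Hcn4, the main pacemaker channel gene of the sinoatrial node, had levels of 3.48, 6.85 and 6.56 FPKM with AAV-shbrpf1, against 3.59, 7.69 and 7.098 FPKM with AAV-scramble. Here the libraries numbered 1 stood apart, below the others. Pex5l was the lowest of the 4 genes, at 1.83, 0.984 and 1.72 FPKM with AAV-shbrpf1, against 1.77, 1.05 and 1.52 FPKM with AAV-scramble. Its libraries numbered 2 were the lowest, the reverse of the channels. By mean level Hcn3 was above 75.03% of tested genes, Hcn4 above 50.5% and Pex5l above 10.5%.

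**Figure D1:**
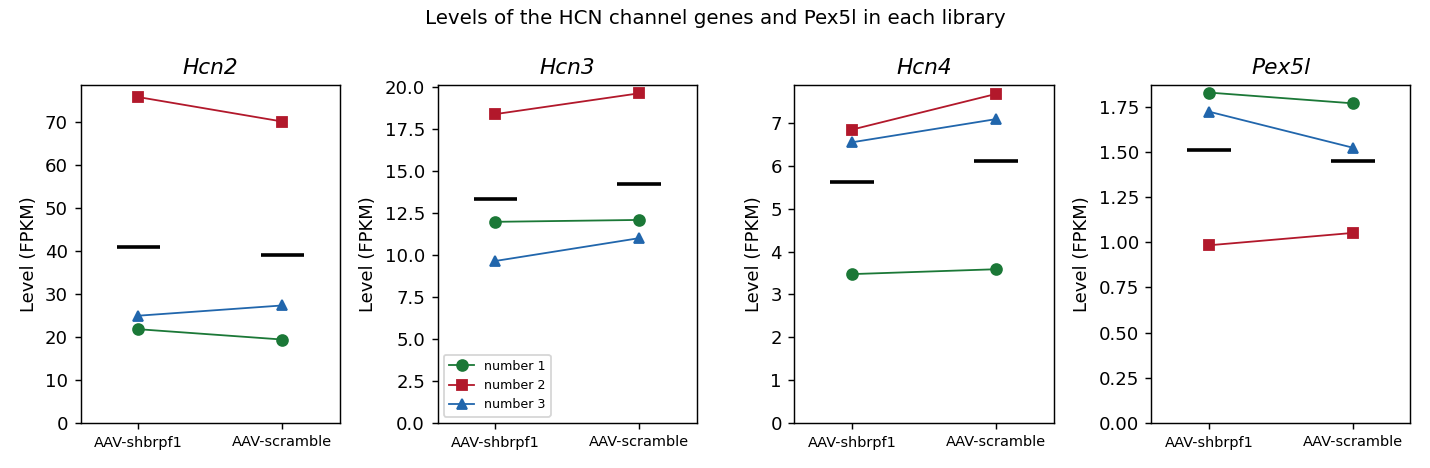
Level in FPKM (y axis, from 0) of each gene in AAV-shbrpf1 (left) and AAV-scramble (right) libraries; lines join libraries of the same replicate number and black bars are group means (n = 3). The lines are nearly flat, while the numbers are far apart: Hcn2 reaches 75.7 and 70.04 FPKM under number 2, against 27.3 FPKM or less under the other numbers.

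The virus with the hairpin against Brpf1 made no detectable difference to any of the 4 genes. Hcn2 averaged 40.8 ± 30.3 FPKM with AAV-shbrpf1, against 38.9 ± 27.3 FPKM with AAV-scramble, and Hcn3 averaged 13.3 ± 4.52 FPKM in AAV-shbrpf1 and 14.2 ± 4.69 FPKM in AAV-scramble libraries (SD, n = 3 each). Hcn4 averaged 5.63 ± 1.87 FPKM with AAV-shbrpf1, against 6.12 ± 2.21 FPKM with AAV-scramble, and Pex5l 1.51 ± 0.461 FPKM in AAV-shbrpf1 and 1.45 ± 0.365 FPKM in AAV-scramble libraries. On the log2(FPKM + 1) scale the differences were 0.05 ± 0.61, -0.09 ± 0.33, -0.09 ± 0.35 and 0.03 ± 0.25 (SE) for Hcn2, Hcn3, Hcn4 and Pex5l, each with a limma adjusted p of 1. None of the 4 had groups that do not overlap, as 1.07% of all genes tested did. Of the 12792 genes tested, 0 (0%) passed at an adjusted p under 0.05, and 23 had an unadjusted p under 0.05. Exact two-sided permutation tests of the group means gave p = 0.7 for Hcn2, 0.6 for Hcn3, 0.5 for Hcn4 and 0.9 for Pex5l, where 3 samples against 3 cannot go below 0.1.

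Libraries of the same number resembled each other, and the pairs narrow what can be said. In the pairs numbered 1, 2 and 3, Hcn2 with AAV-shbrpf1 differed from its level with AAV-scramble by 12.4%, 8.11% and -8.72%. Each of these is 2.41 to 3.53 times the counting error expected of the pair, but their directions differ. Hcn3 was lower with AAV-shbrpf1 in 3 of 3 pairs, with differences of -0.934%, -6.32% and -12.4%.

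Hcn4 was lower in 3 of 3 pairs too, with differences of -3.18%, -10.8% and -7.63%. Of all genes tested, 11.3% were lower in all 3 pairs, and the first of these differences is under the counting error for both Hcn3 (5.04%) and Hcn4 (7.51%). For Pex5l the differences were 3.37%, -6.51% and 13.1%, against counting errors of 12.6% to 17.1%, so none of them stands clear of counting error.

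When the replicate number entered the fit as a block, the 95% intervals of the log2 difference were -0.18 to 0.27 for Hcn2, -0.30 to 0.11 for Hcn3, -0.32 to 0.13 for Hcn4 and -0.26 to 0.32 for Pex5l. Expression cut to 50% of the mean with AAV-scramble would give a difference of -0.96 for Hcn2, -0.91 for Hcn3, -0.81 for Hcn4 and -0.51 for Pex5l. Those sizes lie outside the blocked intervals. Without the block, the intervals ran from -1.37 to 1.47 for Hcn2, from -0.86 to 0.67 for Hcn3, from -0.92 to 0.73 for Hcn4 and from -0.56 to 0.62 for Pex5l. These wider intervals hold a change to 50% for Hcn2, Hcn4 and Pex5l, and not for Hcn3. By the blocked fit 0 of the 12792 genes passed (0%), and 280 had an unadjusted p under 0.05.

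**Figure D2:**
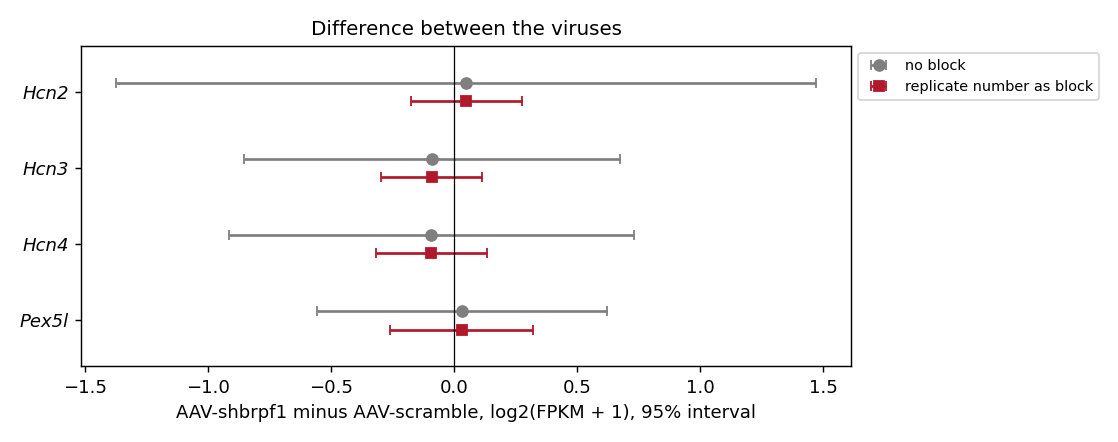
Difference AAV-shbrpf1 minus AAV-scramble on the log2(FPKM + 1) scale (x axis) for each gene, with 95% intervals from limma (n = 3 each), without a block (grey circles) and with the replicate number as a block (red squares). All intervals include 0; those with the block reach no further than -0.32 and 0.32.

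What set the libraries apart was the replicate number, whose meaning the labels do not give. Hcn2 averaged 72.9 FPKM in the libraries numbered 2, against 20.6 FPKM in those numbered 1, a ratio of 3.54, and 26.1 FPKM in those numbered 3. By limma's F test of the number (group in the model), the spread over numbers was 1.78 on the log2 scale, with an adjusted p of 0.00227. Hcn3 averaged 19.0 FPKM in the libraries numbered 2, 12.0 FPKM in those numbered 1 and 10.3 FPKM in those numbered 3 (adjusted p = 0.00351, limma). Hcn4 averaged 7.27, 6.83 and 3.53 FPKM in the libraries numbered 2, 3 and 1 (adjusted p = 0.00339, limma). Pex5l averaged 1.02 FPKM in the libraries numbered 2, 1.80 FPKM in those numbered 1 and 1.62 FPKM in those numbered 3, and did not pass (adjusted p = 0.0554, limma).

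The 3 of 4 genes past this threshold are set against 69.4% of all genes tested, so passing it is the rule in these libraries. Both libraries numbered 2 were above the other 4 for Hcn2 and Hcn3, as they were for 20.3% of genes tested. For Hcn4 this did not hold, since AAV-scramble library 3 was above AAV-shbrpf1 library 2. The median gene tested was 0.25 lower (log2) in the libraries numbered 2 than in those numbered 1, so the HCN genes were high against a lower median. After quantile normalization, number 2 minus number 1 was 1.65 for Hcn2, 0.69 for Hcn3 and 1.18 for Hcn4, but -0.02 for Pex5l, against -0.47 as deposited. For Pex5l it was -0.26 after scaling the libraries to a common median, and -0.77 as deposited with 0.1 added in place of 1. The size of the Pex5l difference therefore depends on the scaling and on the value added.

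GC content moved with the replicate number across the genome. The median difference between number 2 and number 1 was -1.36 on the log2 scale for the 760 genes whose longest transcript was under 40% GC, and 0.73 for the 597 genes at 60% or more. The longest Hcn2 transcript is 65.4% GC, richer than 99.6% of genes tested, and its difference of 1.78 exceeded the median of 0.73 in its bin, above 95.6% of the genes there. Hcn3 and Hcn4 are both 58.0% GC, and their differences of 0.62 and 0.87 stood beside a median of 0.49 for genes of 55% to 60% GC. Pex5l, at 47.2% GC, differed by -0.47 beside a median of -0.49 for its bin. The part of GC content in these differences was not tested.

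**Figure D3:**
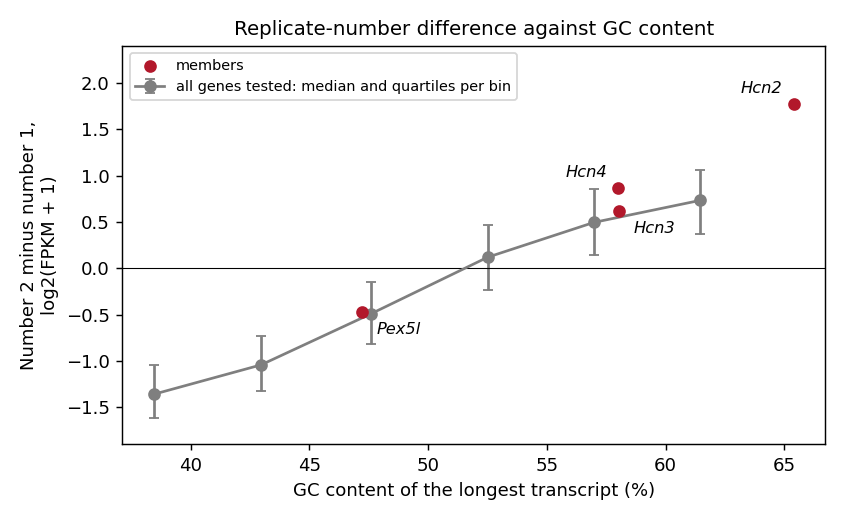
Difference between the libraries numbered 2 and those numbered 1 on the log2(FPKM + 1) scale (y axis) against GC content of the longest transcript (x axis). Grey points are medians with quartiles over all genes tested in each GC bin, red points the 4 genes; Hcn2 lies at 65.4% GC and 1.78, above the median of 0.73 in the richest bin.

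Signs of library quality and markers of cell types also moved with the number. Features of ribosomal RNA loci took 11.9% of fragments, implied from FPKM times the longest transcript's length, in AAV-shbrpf1 library 2 and 7.73% in AAV-scramble library 2, against 2.18% to 3.83% in the other 4 libraries. Mitochondrially encoded genes took 1.92% in AAV-shbrpf1 library 2 and 2.61% in AAV-scramble library 2, against 5.40% to 8.82% elsewhere. AAV-shbrpf1 library 2 also had the fewest genes above 0, 18780 against 22621 to 26132 in the others, and the lowest estimated depth.

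The summed level of 7 radial glia and astrocyte markers ran from 341 to 949 FPKM in AAV-shbrpf1 libraries and from 358 to 922 FPKM in AAV-scramble libraries, and the lowest sum in each group was that of library 2. Fabp7, a fatty acid binding protein of radial glia, was the most abundant of them, at 758, 169 and 570 FPKM with AAV-shbrpf1, against 730, 187 and 581 FPKM with AAV-scramble. Without Fabp7 the sums were 191, 172 and 279.7 FPKM in AAV-shbrpf1 libraries and 192, 171 and 307 FPKM in AAV-scramble libraries, and Aldoc and Hes5 were higher in the libraries numbered 2 than in those numbered 1. The 3 cycling-cell markers summed to 8.55 FPKM in AAV-shbrpf1 library 2 and 10.7 FPKM in AAV-scramble library 2, against 20.96 to 27.9 FPKM in the other 4 libraries.

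Neuron markers did not move together. Tubb3, a neuronal tubulin, stood at 396, 670 and 518 FPKM with AAV-shbrpf1, against 329, 642 and 618 FPKM with AAV-scramble, lowest in the libraries numbered 1. Map2, a dendritic microtubule protein, stood at 51.2, 17.0 and 40.4 FPKM with AAV-shbrpf1, against 52.6, 23.8 and 39.1 FPKM with AAV-scramble, lowest in those numbered 2. Snap25, Stmn2 and Syt1 were also lower in the libraries numbered 2 than in those numbered 1, and Rbfox3 was higher. The sum of the 6, 877 to 949 FPKM with AAV-shbrpf1 and 819 to 967 FPKM with AAV-scramble, does not show these opposite directions.

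The 7 interneuron markers summed to 626 FPKM in AAV-shbrpf1 library 1 and 599 FPKM in AAV-scramble library 1, and to 732 to 907 FPKM in the other libraries. This sum hides opposite directions. Gad1 and Gad2 were highest in the libraries numbered 1, Slc32a1 and Dlx2 were lowest there, and Lhx6 and Dlx1 were highest in those numbered 3. Sst, the somatostatin gene, was also lowest in the libraries numbered 1, at 232, 423 and 394 FPKM with AAV-shbrpf1, against 178, 468 and 564 FPKM with AAV-scramble. Oligodendrocyte lineage markers, of interest because oligodendrocyte precursors can express HCN channels, summed to 139.6 FPKM in AAV-shbrpf1 library 1 and 121 FPKM in AAV-scramble library 1, and to 214 to 289 FPKM in the other libraries. Fibroblast markers (Col1a1, Dcn and Lum) reached 9.54 FPKM in AAV-shbrpf1 library 1 and 21.9 FPKM in AAV-scramble library 1 and stayed at or below 0.332 FPKM elsewhere. Endothelial and mural markers summed to 11.9 FPKM in AAV-shbrpf1 library 1 and 12.2 FPKM in AAV-scramble library 1, of which Acta2 made up 11.6 and 11.5 FPKM, and to 0.679 FPKM or less elsewhere. The part of library quality and of cell makeup in the levels of the 4 genes was not tested.

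The mix of channel genes changed with the replicate number and little with the virus. Of the summed FPKM of Hcn2, Hcn3 and Hcn4, Hcn2 made up 58.5%, 75.02% and 60.6% in AAV-shbrpf1 libraries 1, 2 and 3 and 55.3%, 72.0% and 60.1% in AAV-scramble libraries. Hcn3 made up 32.1%, 18.2% and 23.4% with AAV-shbrpf1, against 34.5%, 20.1% and 24.2% with AAV-scramble. Hcn4 made up 9.34%, 6.79% and 16.0% with AAV-shbrpf1, against 10.2%, 7.897% and 15.6% with AAV-scramble. Within a pair no share differed by more than 3.22 percentage points. The share of Hcn2 differed by 16.5 points between the libraries numbered 1 and 2 with AAV-shbrpf1. In pairs 1, 2 and 3 the Hcn2 share was higher with AAV-shbrpf1, by 3.22, 3.06 and 0.47 points. The Hcn3 share was lower in each pair (-2.32, -1.95 and -0.79 points), and the Hcn4 share was lower in pairs 1 and 2 only. These shares are parts of 1 sum, and their differences were not tested. Hcn2 was 6.26, 11.1 and 3.80 times the level of Hcn4 in AAV-shbrpf1 libraries and 5.396, 9.11 and 3.84 times in AAV-scramble libraries. The level of Pex5l was 4.92%, 0.974% and 4.19% of the summed channel level with AAV-shbrpf1, against 5.05%, 1.08% and 3.36% with AAV-scramble. In these bulk values the auxiliary protein's transcript was thus scarcest beside the channels in the libraries numbered 2. The genes set side by side here differ in GC content (65.4% for Hcn2, 58.0% for Hcn3 and Hcn4, 47.2% for Pex5l), which moved with the number. Its part in the shares and ratios was not tested.

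**Figure D4:**
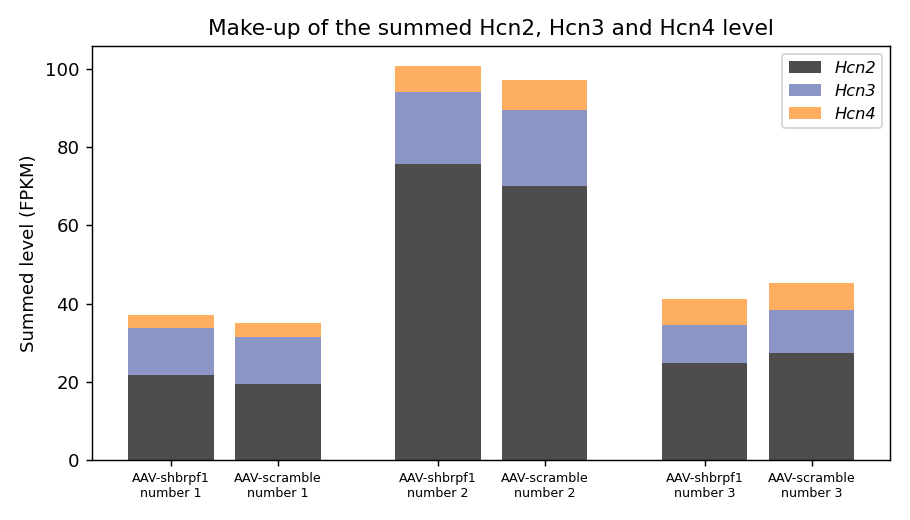
Summed FPKM of Hcn2, Hcn3 and Hcn4 (y axis) in each library, stacked by gene, with AAV-shbrpf1 left of AAV-scramble in each pair. The sums are 101 and 97.3 FPKM in the pair numbered 2 and 35.03 to 45.4 FPKM in the others, and Hcn2 is the largest part in each bar.

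Other genes followed the same patterns over the 6 libraries. Pearson's r of log2(FPKM + 1) is given as a description, since the libraries fall into 3 pairs that share GC trends. Hcn2 was matched most closely by Map3k10, a mixed-lineage kinase (r = 0.999), Slc32a1, the vesicular GABA transporter (0.999), Sars2, a mitochondrial seryl-tRNA synthetase (0.999), Arhgap1 (0.999) and Got2, the mitochondrial aspartate aminotransferase (0.998). Slc32a1 measured 65.4, 121 and 68.5 FPKM in AAV-shbrpf1 libraries and 59.97, 119 and 71.1 FPKM in AAV-scramble libraries. The GABA-synthesizing enzymes of the same marker list ran the other way between numbers 1 and 2. Gad2 stood at 102, 40.1 and 74.1 FPKM with AAV-shbrpf1, against 120.2, 55.03 and 64.9 FPKM with AAV-scramble, and Gad1 at 157, 94.1 and 101 FPKM in AAV-shbrpf1 and 177, 106 and 95.4 FPKM in AAV-scramble libraries. For Hcn3 the closest were Zmym3, Gfpt2, Akap1, Zfp414 and Chga, the chromogranin A gene of dense core vesicles (r from 0.994 to 0.998). For Hcn4 they were Chaf1a, a subunit of chromatin assembly factor 1, Dlg5, the retinoic acid receptor gene Rara, Zc3h4 and Numa1 (0.998 to 0.999). For Pex5l they were Rasal2, Ubap1l, Zdhhc15, Nalcn, a sodium leak channel that also acts near the resting potential, and Cstf3 (0.999 to 1.00).

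Such likeness was common: of 11286 named genes compared, 6.23% had an r over 0.95 with Hcn2, 2.02% with Hcn3, 4.38% with Hcn4 and 14.6% with Pex5l. Among the 4 genes, r was 0.90 for Hcn2 with Hcn3, 0.69 for Hcn2 with Hcn4 and 0.37 for Hcn3 with Hcn4, while Pex5l ran opposite to each (-0.99, -0.90 and -0.70). These r use the values as deposited. The fall of Pex5l from number 1 to number 2 was -0.47 in them, -0.26 after scaling to a common median and -0.02 after quantile normalization.

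Genes that make, break down and sense cyclic AMP, the ligand of HCN channels, were counted by virus from lists chosen for their roles. Of the adenylyl cyclases, which make cyclic AMP, 7 of 10 were tested and 0 passed in either direction, with a median log2 difference of 0.05 against -0.02 over all genes tested. Adcy1, a calcium-stimulated neuronal cyclase, stood at 44.7, 55.2 and 46.7 FPKM with AAV-shbrpf1, against 49.4, 55.1 and 37.8 FPKM with AAV-scramble, and Adcy5, a striatal cyclase, at 13.9, 30.8 and 24.4 FPKM in AAV-shbrpf1 and 13.4, 30.8 and 24.3 FPKM in AAV-scramble libraries. Of 16 phosphodiesterases, 10 were tested and 0 passed (median -0.04). Pde2a had 9.33, 16.6 and 16.9 FPKM with AAV-shbrpf1, against 8.71, 17.5 and 18.8 FPKM with AAV-scramble, and Pde4a 8.06, 21.8 and 11.2 FPKM in AAV-shbrpf1 and 8.13, 20.0 and 10.2 FPKM in AAV-scramble libraries. The cyclases and phosphodiesterases named here overlap between the groups in level.

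Of 10 cyclic AMP effectors 8 were tested and 0 passed (median -0.04). Prkar1b, a regulatory subunit of protein kinase A, stood at 94.8, 180.5 and 100.03 FPKM with AAV-shbrpf1, against 90.03, 189 and 112 FPKM with AAV-scramble, and Prkar1a at 151, 88.04 and 133 FPKM in AAV-shbrpf1 and 155, 94.8 and 126 FPKM in AAV-scramble libraries. The difference farthest below 0 in that list was that of Prkacb, a catalytic subunit picked after its values were seen. Its levels were 56.0, 12.5 and 17.2 FPKM with AAV-shbrpf1, against 27.6, 30.6 and 39.4 FPKM with AAV-scramble, -0.46 ± 0.52 (SE; limma adjusted p = 1), higher in pair 1 and lower in the others.

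Proteins that bind or move HCN channels were counted too. Of 17 names 14 were found. The rest (Tamalin, Irag1 and Irag2) are newer symbols of Grasp, Mrvi1 and Lrmp, which were found under those names. Of the genes found 10 were tested, 0 passed, and their median was -0.05. Apba2 (Mint2), a neuronal adaptor that binds the Hcn2 channel, stood at 28.3, 45.1 and 38.9 FPKM with AAV-shbrpf1, against 27.0, 44.5 and 42.5 FPKM with AAV-scramble, and Vapb, a protein of the endoplasmic reticulum, at 26.9, 33.4 and 31.9 FPKM in AAV-shbrpf1 and 26.4, 32.5 and 31.9 FPKM in AAV-scramble libraries. Kctd3, a partner of the Hcn3 channel, had 9.13, 7.31 and 9.67 FPKM with AAV-shbrpf1, against 10.9, 7.60 and 8.58 FPKM with AAV-scramble and was looked up for that role. Kcne2, an accessory subunit in the heart, averaged 0.0679 FPKM and was not tested.

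Of the related cyclic nucleotide-gated and Kcnh channels, 5 of 14 were tested and 0 passed (median 0.02). Kcnh2 stood at 7.81, 10.7 and 5.51 FPKM with AAV-shbrpf1, against 8.13, 9.24 and 5.75 FPKM with AAV-scramble, and Kcnh1 at 2.90, 4.80 and 4.54 FPKM in AAV-shbrpf1 and 3.33, 4.20 and 4.37 FPKM in AAV-scramble libraries. No Cnga or Cngb gene of the list averaged above 0.0421 FPKM.

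Channels that act beside HCN near the resting potential had 18 of 19 members tested, 0 passing, and a median of 0.03. Kcnj4, an inward rectifier, stood at 23.2, 45.1 and 12.2 FPKM with AAV-shbrpf1, against 27.9, 44.8 and 8.52 FPKM with AAV-scramble, and Kcnd2, an A-type potassium channel, at 26.2, 10.2 and 18.2 FPKM in AAV-shbrpf1 and 29.8, 13.5 and 15.6 FPKM in AAV-scramble libraries. Nalcn, named above, had 9.72, 4.88 and 9.50 FPKM with AAV-shbrpf1, against 9.51, 5.28 and 7.95 FPKM with AAV-scramble. Kcnd3, picked after its values were seen, lay farthest above 0, at 4.36, 9.37 and 3.41 FPKM with AAV-shbrpf1, against 4.71, 2.23 and 2.62 FPKM with AAV-scramble (0.63 ± 0.39, SE; limma adjusted p = 1), with its high value in AAV-shbrpf1 library 2 alone.

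Of 7 transcription factors tied to HCN expression, Mef2c and Rest were tested and 0 passed. Rest, a repressor of neuronal genes, stood at 1.21, 0.639 and 2.72 FPKM with AAV-shbrpf1, against 1.14, 0.444 and 2.09 FPKM with AAV-scramble, and Mef2c at 9.84, 1.76 and 6.39 FPKM in AAV-shbrpf1 and 4.998, 5.01 and 2.17 FPKM in AAV-scramble libraries. Isl1, Shox2 and Tbx3, which act on Hcn4 in the sinoatrial node, were looked up for that role and averaged 0.503, 0.00876 and 0.0462 FPKM over the libraries.

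**Figure D5:**
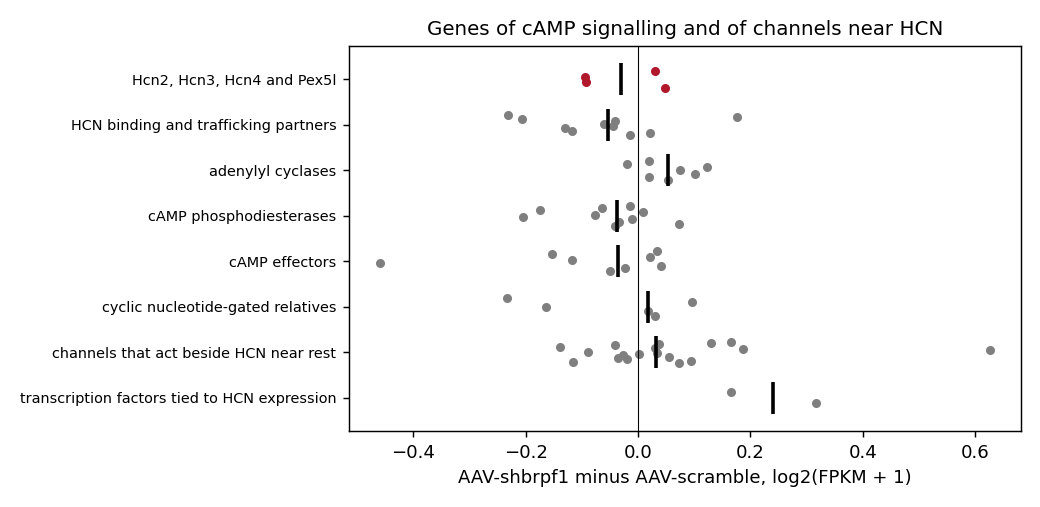
Difference AAV-shbrpf1 minus AAV-scramble on the log2(FPKM + 1) scale (x axis) for each tested gene of each list (points) with the list's median (black bar); vertical spread within a list only separates points. List medians lie from -0.05 to 0.05 except for the pair of transcription factors at 0.24, and no gene passed.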

How the data were processed

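Per the labels' protocols, total RNA of 6 samples went through paired-end Illumina HiSeq sequencing. The authors deposited 1 table of 55335 genes with no unit in its header; the authors' values are taken as FPKM because they are not whole and do not sum to a fixed total. FastQC, StringTie and DESeq2, and the build mm9, are named without roles in the submitters' processing notes, while 54899 of 55154 gene identifiers shared with GENCODE M21 have its GRCm38 coordinates. For the aligner, annotation, filters and strand use, the entry is: not given in the sources. Columns were matched to samples by group and number in the titles.

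Genes averaging at least 1 FPKM in a group (12792) were tested as log2(FPKM + 1) with limma 3.58.1 (R 4.3.3; two-sided, mean-variance trend, Benjamini-Hochberg over all genes, threshold 0.05). Adding 1 shrinks the differences of low genes such as Pex5l. The fit without a block is the one reported first; the numbers pair the samples, since deviations from group means correlated at 0.87, 0.83 and 0.57 in the same-numbered pairs. Depth was estimated from 11673 single-exon genes; 39.5% to 43.3% of their low values lay on whole steps (tolerance 0.03), so reads were not recovered. Fragments per gene used the longest transcript, and counting errors cover counting only. Python 3.11.15 and scipy 1.17.1 gave the exact permutation tests.

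The members and gene lists were chosen with earlier results of these data known. The text names Brpf1, the members, the 2 most abundant genes of each list where none passed, the 5 named genes most like each member, and genes that overlap a member; further genes are said to have been looked up or picked. A few genes within this rule are not reported here.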

Additional observations from a re-analysis of the deposited data

How the results depend on the processing

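No gene of the 4 passed between the viruses under any alternative tried: a pseudocount of 0.1, no filter on low values, scaling to a common median, quantile normalization, limma without trend, the replicate number as a block, and leaving out libraries or pairs. With the replicate block the differences were 0.05 for Hcn2, -0.09 for Hcn3, -0.09 for Hcn4 and 0.03 for Pex5l, and no call changed. Without a block, leaving out 1 library moved the difference between -0.50 and 0.57 for Hcn2, -0.33 and 0.15 for Hcn3, -0.38 and 0.17 for Hcn4, and -0.0913 and 0.19 for Pex5l, so the sign of each depends on single libraries. The lowest Hcn2 value was that without AAV-shbrpf1 library 2 (-0.50). With the block, leaving out 1 pair gave -0.00788 to 0.14 for Hcn2, -0.13 to -0.05 for Hcn3, -0.12 to -0.07 for Hcn4 and -0.00911 to 0.07 for Pex5l. Over all genes the count that passed was 0 to 8 with 1 pair left out under the block, the 8 without pair 2 and 1 without pair 3; the cause was not tested. The F test of the number kept Hcn2, Hcn3 and Hcn4 past the threshold under each scaling, pseudocount and filter (adjusted p from 0.00162 to 0.0189, limma), and Pex5l outside it (0.0554 to 0.923). Every list count stayed at 0. Leaving out 1 library, the mean Hcn2 share of the channel sum ran from 59.6% to 67.8% with AAV-shbrpf1 and from 57.7% to 66.1% with AAV-scramble. Depth limits Pex5l most, with an estimated 54.2 to 148 fragments per library.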
